A study of Mus musculus with 30 samples.

Results

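Actin filaments shape growth cones, dendritic spines and axons, and their behaviour depends on the proteins that coat, elongate, branch and anchor them. Tropomyosins, here Tpm1 and Tpm3, are coiled coils that lie along the filament, and their genes choose between exons to give each isoform its own binding properties. Enah (also called Mena) and Evl are members of the Ena/VASP family, which elongate filaments at their growing ends, cortactin (Cttn) binds branched filaments through a row of sequence repeats, and Ablim1 is an actin-binding LIM protein. The data are the alternative splicing events of these 6 genes, taken as all rows of 4 deposited splicing tables that carry 1 of the 6 symbols. There were 53 such rows of 6491, describing 32 distinct events in 8 stretches of the genome that do not overlap.

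The study compared RNA of mouse neuron classes with and without Nova2, a neuronal RNA-binding protein that controls splicing by binding clusters of the tetramer YCAY. The labels list 30 samples in 10 groups of 3, of which 18 samples in 6 groups stand behind the tables. Neurons of the cortex were sorted by FACS at embryonic day 18.5, from C57BL/6J mice that carried Emx1-Cre (whose Cre is used to mark excitatory cortical neurons) or Gad2-Cre (inhibitory neurons), each as wild-type controls and as conditional Nova2 knockouts, written cKO from here on. The Purkinje cell layer of the cerebellum was dissected at postnatal day 28 from C57BL/6J mice with Pcp2-Cre, again as wild-type controls and Nova2 cKO, so its RNA also holds the neighbours of the Purkinje cells in which the Cre acts. All 6 groups carried a Cre and had ribosomal RNA removed. Whether the 3 samples of each group came from separate animals is not stated in the labels, and the FDR values may then cover technical spread only.

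Values here are inclusion levels, which run from 0 (no RNA of an event contains the alternative region) to 1 (all of it does). Each table gives 1 pooled level per group, with no value per sample, which leaves the levels without a replicate error and the library depths unknown. Only events with an FDR of at most 0.05, a difference of at least 0.1 and a coverage of at least 20 were listed, so an event that is missing from a table may have failed any of these. The labelled cell types could not be checked, since the tables hold no expression levels: none of 14 marker genes of astrocytes, oligodendrocytes, microglia and endothelium had a listed event in any table (0 genes), and Nova2 itself had 0 events in each. In the Purkinje table the order of the groups is not named, and they are called 1 and 2.

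The exons on which the results turn are shown here, read from GENCODE M21 transcripts on build mm10. Tpm3 has a pair of neighbouring alternative exons of the same length, 76 nt, which were identical at 39 of 76 positions (51.3%). Capitals mark the positions at which the pair differs.
Tpm3, first exon of the pair, chr3:90088401-90088476, plus strand: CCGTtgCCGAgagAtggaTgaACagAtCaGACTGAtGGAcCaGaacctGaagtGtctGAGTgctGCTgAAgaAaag
Tpm3, second exon of the pair, chr3:90089048-90089123, plus strand: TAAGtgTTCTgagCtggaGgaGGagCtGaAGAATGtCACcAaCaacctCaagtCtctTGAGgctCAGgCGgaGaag
A second kind of exon, 79 nt long and near the end of the coding sequence, occurs in both tropomyosin genes, and here the copies were identical at 70 of 79 positions (88.6%). Capitals again mark the positions that differ.
Tpm1, cassette exon, chr9:67029664-67029742, minus strand: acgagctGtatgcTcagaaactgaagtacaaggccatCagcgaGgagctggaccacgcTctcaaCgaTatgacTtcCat
Tpm3, cassette exon of the Purkinje table, chr3:90091013-90091091, plus strand: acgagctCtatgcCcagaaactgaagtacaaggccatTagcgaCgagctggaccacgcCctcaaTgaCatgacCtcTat
The Ablim1 exon of 147 nt had the largest difference of any event of the 6 genes. Capitals mark the 6 bases that a second, shorter form of 141 nt lacks.
Ablim1, cassette exon, chr19:57046925-57047071, minus strand: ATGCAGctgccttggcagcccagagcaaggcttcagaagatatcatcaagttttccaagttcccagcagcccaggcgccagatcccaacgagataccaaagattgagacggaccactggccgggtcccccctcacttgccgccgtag
The Ena/VASP exons are short, and capitals mark YCAY tetramers, searched on the RNA strand as TCAT or TCAC and CCAT or CCAC, with overlaps allowed.
Enah, exon of 12 nt, chr1:181931174-181931185, minus strand: tgttctatttag
Enah, exon of 57 nt, chr1:181935660-181935716, minus strand: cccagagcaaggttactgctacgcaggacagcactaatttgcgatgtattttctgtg
Evl, exon of 63 nt, chr12:108683348-108683410, plus strand: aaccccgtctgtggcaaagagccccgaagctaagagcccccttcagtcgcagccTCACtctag

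Of the 2682 events listed for Emx1-Cre neurons 26 belonged to the 6 genes, 13 higher and 13 lower in cKO (over all listed events 48.4% were higher and 51.6% lower), and their median absolute difference was 0.346 against 0.209 over all events. For Gad2-Cre neurons there were 15 of 1970, 10 higher and 5 lower in cKO (over all listed events 41.4% were higher and 58.6% lower), with a median of 0.298 against 0.202. Counted once per gene, by its largest event, 3 of 4 genes (75.0%) were lower in Gad2-Cre cKO, so the majority of higher events was not seen in this count. The direction of a gene depends on the event taken. Tpm3 counts as lower by a form of the second exon of its pair, while 4 of its 6 events were higher. The table of Emx1-Cre against Gad2-Cre controls listed 8 events, 4 higher in each class (of all 1236 events 36.3% were higher in Emx1-Cre and 63.7% in Gad2-Cre), and the Purkinje table listed 4, all higher in group 2 (67.8% of all 603 events were). With a minimum difference of 0.2, only 2 events were left between the controls, both higher in Gad2-Cre, and 2 in the Purkinje table. Events of a gene overlap and share reads, so these counts measure some changes several times, and for mutually exclusive exons and splice sites the direction is only that of the isoform named first. Ablim1 was listed in the Emx1-Cre table alone and Cttn only between the controls. Of the 32 events, 16 were in 1 table, 11 in 2 and 5 in 3. The same split over all listed events was not counted, so whether the 6 genes differ from it is not known.

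**Figure D1:**
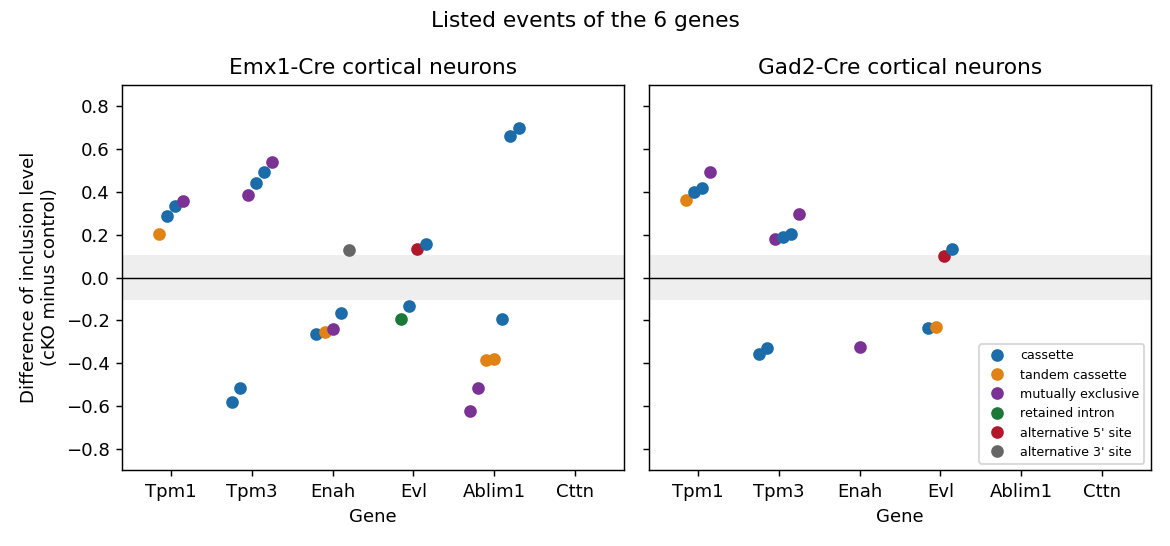
Difference of the inclusion level (cKO minus control, vertical axis) of each listed event, by gene, in Emx1-Cre (left) and Gad2-Cre (right) neurons; each point is 1 event, coloured by its type, with no error since 1 pooled level per group is deposited, and the grey band holds differences under 0.1, which are not listed. The Tpm1 events all lie above 0 in both classes, and Ablim1 has 7 events on the left and 0 on the right.

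Tpm3 used the first exon of its pair more when Nova2 was lost, in both cortical classes. These are coding exons, annotated as exon 5 of Tpm3-201 and exon 5 of Tpm3-202 (ENSMUSG00000027940), and each gives the protein a different stretch of the coiled coil. In the mutually exclusive event across the pair, whose second-named isoform is not given, the level of the first exon rose in the authors' deposited tables. It went from 0.05 in Emx1-Cre controls to 0.590 in cKO (FDR 9.73e-20, coverage 52) and from 0.102 to 0.4 in Gad2-Cre neurons (FDR 0.0114, coverage 50). In this event control levels of both classes were thus near 0.1 or below, and cKO levels at 0.4 and above. Measured as a cassette, the same exon rose in the authors' deposited tables from 0.0404 to 0.535 in Emx1-Cre (FDR 8.47e-37) and from 0.0943 to 0.299 in Gad2-Cre neurons (FDR 1.17e-06). The skipped form of this cassette joins the exon before the pair directly to the second exon.

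The second exon of the pair showed the opposite change in events whose upstream exon is the first exon. Skipping there joins the first exon directly to the exon after the pair. These events thus do not measure the total use of the second exon apart from the first. As a cassette behind the first exon, the second exon fell from 0.871 to 0.356 in Emx1-Cre (FDR 0.000122) and from 0.789 to 0.459 in Gad2-Cre neurons (FDR 0.0464), both in the authors' deposited tables at coverages of 29 and 28. A form of the second exon that starts 4 bases later, 72 nt long and not an annotated exon, gave values of the same direction, 0.863 to 0.283 and 0.761 to 0.403 in the authors' deposited tables. A longer form of the first exon, 124 nt, which GENCODE also does not list as an exon, rose as a cassette from 0.0166 to 0.459 in Emx1-Cre and from 0.04 to 0.229 in Gad2-Cre neurons in the authors' deposited tables. As a mutually exclusive exon it rose from 0.0194 to 0.405 and from 0.0465 to 0.229, again in the authors' deposited tables. All 6 events lie at this pair within 2186 nt, so they count as 1 change.

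The change at the pair was larger in Emx1-Cre than in Gad2-Cre neurons by some of these readings. To test this, the authors' p-value of each difference was turned into a standard error, treating it as two-sided and normal. The change in Gad2-Cre minus that in Emx1-Cre was then tested over all 823 events listed in both tables, with Benjamini-Hochberg adjustment. The cassette events of the 76 and 72 nt forms of the second exon had equal p-values within each class at unlike differences (-0.515 and -0.580 in Emx1-Cre). These p-values thus need not measure the spread of a level difference, and the intervals and adjusted p-values are approximate. Of the 823 events 106 passed an adjusted p of 0.05 (12.9%), and of the 14 events of the 6 genes 3 did, all of them in Tpm3. For the cassette reading of the first exon the difference was -0.290, the Gad2-Cre change being the smaller, with a 95% interval from -0.394 to -0.186 and an adjusted p of 2.87e-06 in this normal test across events. The 124 nt form differed by -0.254 as a cassette and by -0.203 as a mutually exclusive exon (adjusted p = 1.65e-06 and 0.00751 in the same test across events).

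The other 3 readings of the pair did not pass. The mutually exclusive reading of the 76 nt exon, which has the best coverage of the 6, differed by -0.242 with an interval from -0.444 to -0.0408 (adjusted p = 0.11 across the 823 events). For the second exon the differences were 0.185 and 0.222 with intervals from -0.151 to 0.521 and from -0.149 to 0.593. None of the 3 events that passed has a coverage of 50 in both tables, and with that minimum 0 of the 7 events left in the 6 genes passed the test; 1 of them, the mutually exclusive reading above, had an unadjusted p under 0.05 (0.0185, adjusted p = 0.111 by the normal test across events). Tpm3 has processed relatives in the annotation, the pseudogene Tpm3-rs2 and the coding gene Tpm3-rs7, and the sources used here do not give how the authors placed reads shared with them, so the Tpm3 levels are uncertain to that extent.

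**Figure D2:**
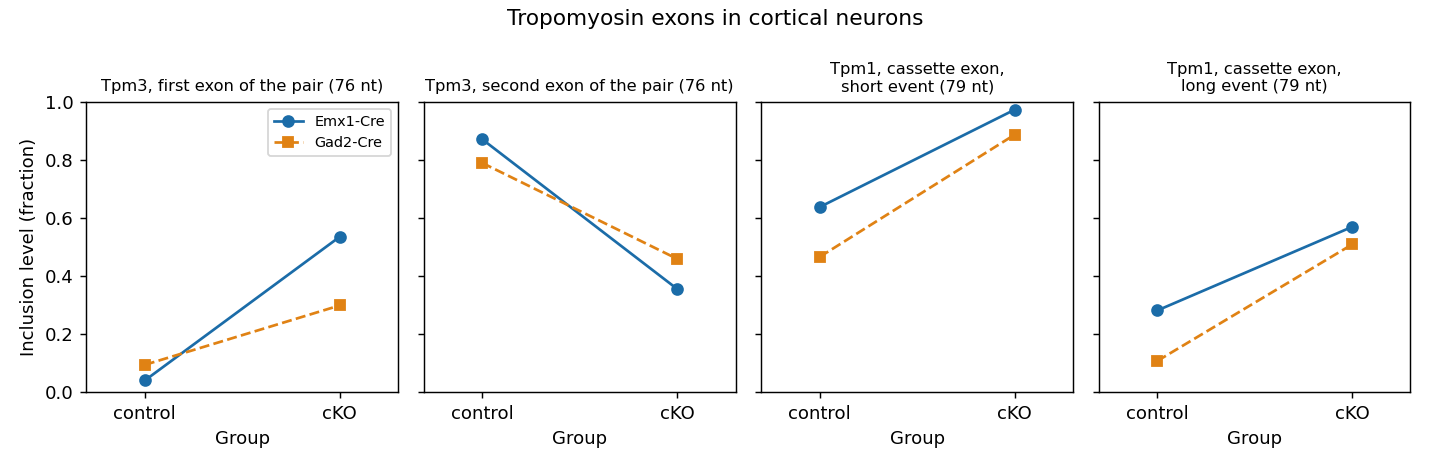
Inclusion level (fraction, vertical axis) in control and cKO of Emx1-Cre (blue circles, solid) and Gad2-Cre neurons (orange squares, dashed), as pooled by the authors and thus without error bars, for the first and second Tpm3 exon read as cassettes (left panels) and the Tpm1 exon in a shorter and a longer event (right panels). The first Tpm3 exon rises further in Emx1-Cre neurons, to 0.535 against 0.299, while both Tpm1 readings rise in both classes.

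In Tpm1 (ENSMUSG00000032366) loss of Nova2 raised the use of the 79 nt exon in both classes. This coding exon, number 9 of Tpm1-203, lies among the alternative ends of the gene, and 79 nt is not a multiple of 3, so its use sets the reading frame of what follows. In the event that joins it to the next annotated end, it rose from 0.638 to 0.973 in Emx1-Cre (FDR 1.39e-11, coverage 37.6) and from 0.466 to 0.887 in Gad2-Cre neurons (FDR 4.42e-07, coverage 30.5) in the authors' deposited tables. In this event most of the RNA held the exon in cKO, in both classes.

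The same exon was also measured against a more distant end of the gene, and there the levels were lower throughout. In that longer cassette event it rose from 0.282 to 0.569 in Emx1-Cre (FDR 1.12e-05) and from 0.108 to 0.509 in Gad2-Cre neurons (FDR 1.53e-10) in the authors' deposited tables. A tandem event that adds a 97 nt region behind the exon rose from 0.358 to 0.563 and from 0.167 to 0.527, and the mutually exclusive reading from 0.622 to 0.980 and from 0.412 to 0.906, all in the authors' deposited tables. The order of the classes was the same at all 4 events, with Emx1-Cre above Gad2-Cre in controls and in cKO.

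Of the 4 Tpm1 events 2 were also listed between the controls, the longer cassette (0.282 in Emx1-Cre against 0.108 in Gad2-Cre, FDR 0.00262) and the tandem event (0.358 against 0.167, FDR 0.0205), in the authors' deposited table. That table shares its control samples with the cKO tables, so its values are not independent of theirs. In cKO the distance between the classes was 0.0605 at the cassette and 0.0361 at the tandem event, against 0.174 and 0.191 in controls. This narrowing equals the difference between the classes' changes, 0.113 (95% interval from -0.0468 to 0.274) and 0.155 (from -0.00542 to 0.316), and neither passed the test across the 823 events (adjusted p = 0.443 and 0.245). The other 2 Tpm1 events did not pass either, with differences of 0.0854 (from -0.0863 to 0.257) for the shorter cassette and 0.137 (from -0.181 to 0.454) for the mutually exclusive reading.

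The Purkinje list held 0 Tpm1 events but gave the matching exon of Tpm3. The 79 nt exon, number 8 of Tpm3-202, was at 0.152 in group 1 and 0.453 in group 2 in the authors' deposited table (FDR 0.00034, coverage 52.5). Measured against a more distant last exon, it was at 0.0900 and 0.263 there (FDR 1.34e-07). A form of 119 nt, not annotated as an exon, stood at 0.138 and 0.396 in one event and at 0.0584 and 0.205 in another, again in the authors' deposited table. In all 4 events the alternative exon starts at the same base, so they can share reads. The cortical tables listed 0 events at this exon, and the Purkinje list held 0 at the pair of 76 nt exons, which does not show that the exons behave differently there, since age, tissue and coverage also differ and only listed events have values.

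Evl (ENSMUSG00000021262) used a 63 nt coding exon more in both cKO groups, from a base that already differed between the classes. The exon, number 11 of Evl-201, adds 63 nt, a multiple of 3, and it was the best covered event of the 6 genes. In the authors' deposited tables it rose from 0.121 to 0.278 in Emx1-Cre (FDR 2.53e-14, coverage 590) and from 0.279 to 0.413 in Gad2-Cre neurons (FDR 5.94e-08, coverage 665). Between the controls it was higher in Gad2-Cre (0.279 against 0.121, FDR 1.4e-10, in the authors' deposited table). The 4 levels thus run from Emx1-Cre controls over Emx1-Cre cKO and Gad2-Cre controls, nearly equal at 0.278 and 0.279, to Gad2-Cre cKO, and the changes of the classes differed by -0.0221 with a 95% interval from -0.0800 to 0.0359 (adjusted p = 0.73 across the 823 events).

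The intron just before this exon, 86 nt on chromosome 12 from 108683262 to 108683347, was listed in 2 comparisons, which share the Emx1-Cre controls. In both, the intron was retained less in the group that used the exon more. Its retained level fell from 0.414 to 0.223 in Emx1-Cre cKO (FDR 0.000184) in the authors' deposited table, and between the controls it was 0.414 in Emx1-Cre and 0.221 in Gad2-Cre (FDR 0.00242). The Gad2-Cre cKO table did not list it. The alternative 5' splice site event at the same place, whose second-named isoform skips the exon, had its first-named isoform at 0.146 in controls and 0.279 in cKO of Emx1-Cre, and at 0.306 and 0.409 in Gad2-Cre neurons, in the authors' deposited tables (FDR 5.2e-10 and 4.69e-06).

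A second place in Evl, near its start, moved the other way. It is a 101 nt region on chromosome 12 from 108605911 to 108606011, which overlaps an annotated exon in part and reaches into coding sequence. This region fell from 0.221 to 0.0861 in Emx1-Cre (FDR 0.0388, coverage 71) and from 0.610 to 0.374 in Gad2-Cre neurons (FDR 7.25e-07, coverage 132) in the authors' deposited tables. Between controls it had the largest difference of the 6 genes, 0.221 in Emx1-Cre against 0.610 in Gad2-Cre (FDR 2.55e-09, in the authors' deposited table), and in cKO the classes were still 0.288 apart. Joined to an unannotated 123 nt region it stood at 0.153 in Emx1-Cre and 0.515 in Gad2-Cre controls, and fell to 0.283 in Gad2-Cre cKO, in the authors' deposited tables. The changes of the classes at the 101 nt region differed by -0.101 (95% interval from -0.230 to 0.0285, adjusted p = 0.382 across the 823 events).

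**Figure D3:**
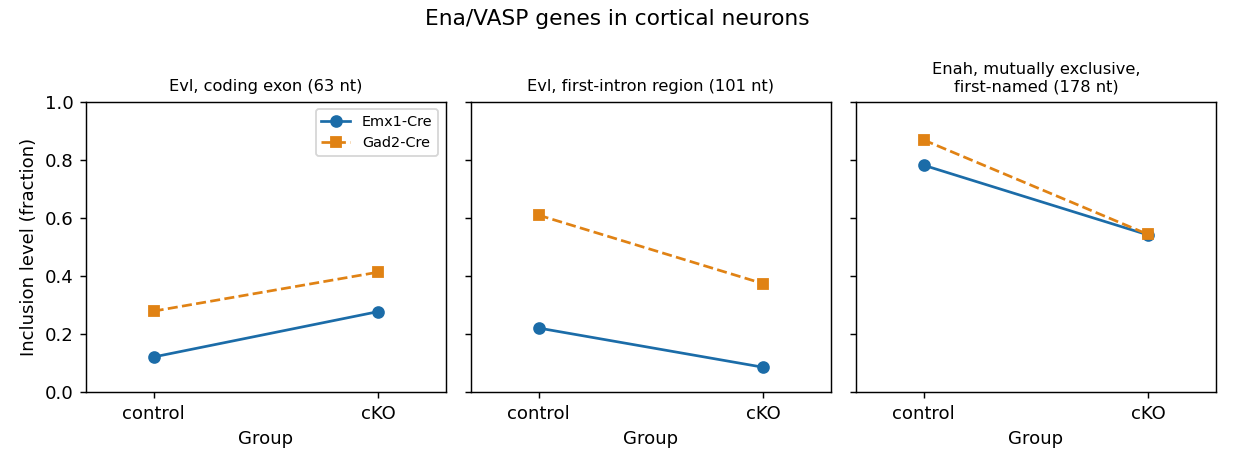
Inclusion level (fraction, vertical axis) in control and cKO of Emx1-Cre (blue circles, solid) and Gad2-Cre neurons (orange squares, dashed), as pooled by the authors and thus without error bars, for the 63 nt Evl exon, the 101 nt Evl region and the first-named mutually exclusive isoform of Enah. Gad2-Cre lies above Emx1-Cre in the Evl panels, and in Enah both classes end near 0.54.

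Enah (ENSMUSG00000022995) used its small exons less in Emx1-Cre cKO. Its 57 nt exon, number 4 of Enah-201, codes for the insert of the Mena form that tumour biology calls INV, and its 12 nt exon is number 4 of Enah-204; both keep the reading frame. In the authors' deposited table the 12 nt exon fell from 0.273 to 0.00946 (FDR 8.35e-08, coverage 32.8) and the 57 nt exon from 0.201 to 0.0369 (FDR 2.25e-07, coverage 36.5). The tandem event with both exons fell from 0.267 to 0.0136 in the same authors' deposited table (FDR 2.48e-11). In cKO these short exons were thus close to 0.

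The Gad2-Cre table did not list these exons, so whether they differ between the classes was not tested. It did list the mutually exclusive event of Enah, whose first-named path joins an exon of 178 nt directly to one of 281 nt. The cassette events above join the 178 nt exon to another exon that lies before the 281 nt exon. RNA of that kind does not follow this path, and the second-named path is not given, so its levels need not be shares of all Enah RNA. The first-named path fell from 0.782 to 0.542 in Emx1-Cre (FDR 3.6e-06, coverage 252) and from 0.869 to 0.543 in Gad2-Cre neurons (FDR 2.12e-12, coverage 203) in the authors' deposited tables. The changes differed by -0.0853 (95% interval from -0.206 to 0.0350, adjusted p = 0.443 across the 823 events). An alternative 3' splice site, whose first-named form joins the 281 nt exon to a coding exon of 843 nt, rose from 0.620 to 0.750 in Emx1-Cre cKO in the authors' deposited table (FDR 0.0316). The authors assign 4 of the 5 Enah events also to the overlapping gene 2700078F05Rik, and the sources used here do not give whether counting used the strand.

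Ablim1 (ENSMUSG00000025085) had the largest changes of the 6 genes, in Emx1-Cre neurons. Its 147 nt exon, number 14 of Ablim1-208, is coding and keeps the reading frame. In the authors' deposited table it rose from 0.0854 in controls to 0.784 in cKO (FDR 1.06e-35, coverage 108), the 57th largest difference of the 2682 listed. The form without the first 6 bases, exon 18 of Ablim1-201, rose from 0.0570 to 0.718 there (FDR 1.87e-35, coverage 102). An exon that controls seldom used was thus in most of this RNA in cKO.

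Events at neighbouring Ablim1 exons fell. A 105 nt coding exon, number 16 of Ablim1-201, fell from 0.949 to 0.754 (FDR 0.00469, the authors' deposited table), and together with the 120 nt exon before it from 0.872 to 0.491 (FDR 0.00446). With an unannotated 92 nt region in place of the latter it fell there from 0.874 to 0.491, by the authors' deposited table (FDR 0.00797); these 3 events had a coverage of only 33.0. The first-named paths of 2 mutually exclusive events hold the 48 nt exon 17 or the 105 nt exon and lack the 147 nt exon. These paths fell there, by the authors' deposited table, from 0.896 to 0.271 and from 0.861 to 0.343 (FDR 3.33e-18 and 7.79e-20). The 48 nt exon is the exon just before the 147 nt exon in the cassette event above. Both falls can thus read the gain of the 147 nt exon again, and they do not show a loss of the 48 nt exon. The Gad2-Cre table and the table of controls listed 0 Ablim1 events, and since unlisted events have no values, a difference between the classes was not tested.

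**Figure D4:**
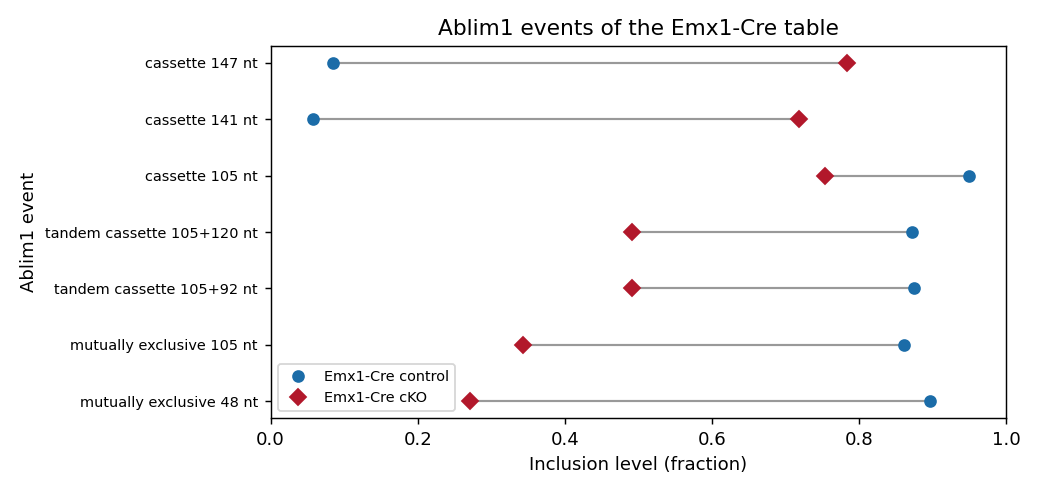
Inclusion level (fraction, horizontal axis) of the 7 Ablim1 events of the Emx1-Cre table in controls (blue circles) and cKO (red diamonds), as pooled by the authors and thus without error bars, with the type of event and the length of the alternative exons on the vertical axis. The 147 and 141 nt forms move from below 0.1 to above 0.7, and the other 5 events move the other way.

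Cttn (ENSMUSG00000031078) was listed once, between the controls. Its event is a mutually exclusive one whose first-named path runs through a 111 nt exon, number 9 of Cttn-201, one of the exons that code for the actin-binding repeats. That path stood at 0.564 in Emx1-Cre and 0.445 in Gad2-Cre controls in the authors' deposited table (FDR 0.00836, coverage 292). Neither cKO table listed a Cttn event (0 events in each).

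All 14 events of the 6 genes that were listed in both cortical cKO tables had the same direction in both, against 97.4% of the 823 shared events of all genes. They came from 4 genes, Tpm1, Tpm3, Evl and Enah, and the change was larger in Gad2-Cre neurons at each Tpm1 event, in Enah and at the 101 nt Evl region, but larger in Emx1-Cre neurons at each Tpm3 event and at the other 2 Evl events. As given above, only 3 of these 14 differences, all in Tpm3, passed the test across events.

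**Figure D5:**
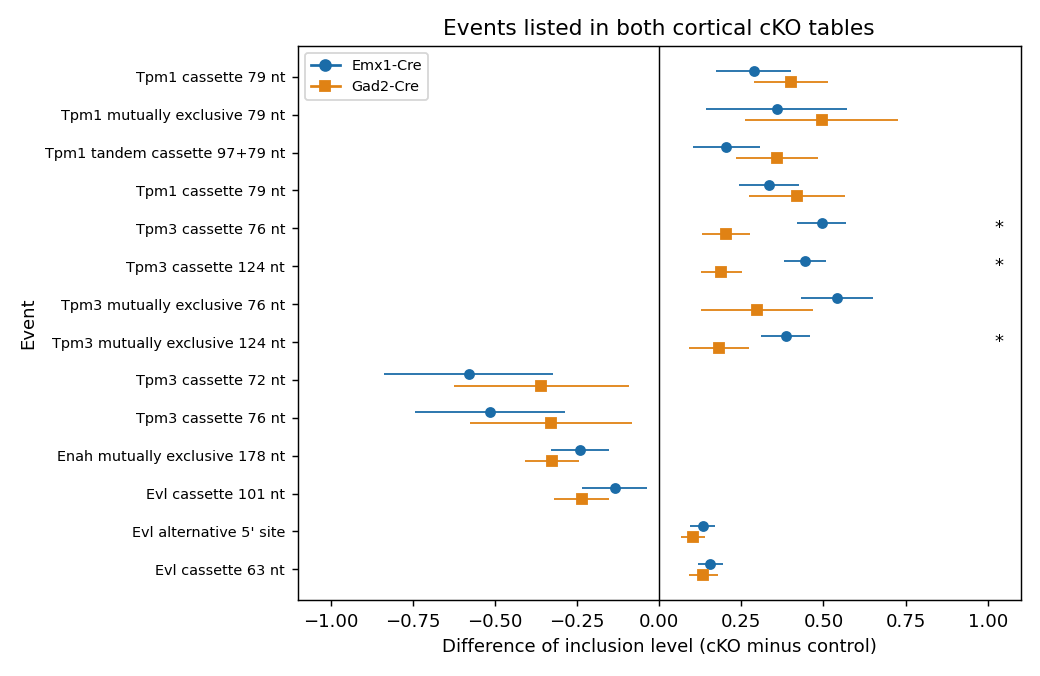
Difference of the inclusion level (cKO minus control, horizontal axis) of the 14 events listed in both cortical tables, in Emx1-Cre (blue circles) and Gad2-Cre neurons (orange squares); bars are 95% intervals from the spread derived from the authors' p-values, and asterisks mark the 3 Tpm3 events with an adjusted p of at most 0.05 for the difference between the classes. In each row both points lie on the same side of 0. The bars are approximate, since these p-values need not measure the spread of a level difference.

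YCAY tetramers were counted in the exons only, since intron sequence was not used here. The Tpm1 exon held 3, which 15.6% of the 90 annotated cassette exons of like length (within 10%) in the cortical cKO tables reached. The Tpm3 exon of the Purkinje table held 2, and of the Tpm3 pair the first held 0 and the second 1, against a median of 1 and a share of 66.3% with at least 1 among 86 exons of like length. The Ablim1 exon held 3, the median of 67 such exons. The Evl exon held 1, as 46.5% of 86 exons of like length did at least, and the Enah exons of 12 and 57 nt held 0. These are letters in a window and not binding sites.

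Of 113 other genes of actin regulation, chosen by function, 20 had a listed event in any table. Only listed events are known, so the share of all genes with a listed event cannot be set beside this count or those below. The Emx1-Cre table listed 9, by their largest event 6 higher and 3 lower in cKO (33.3% lower, against 48.9% of 1044 listed genes). Nckap1, a subunit of the WAVE complex that activates actin branching, rose in the first-named isoform from 0.645 to 0.923 in the authors' deposited table (FDR 0.00191), while the unconventional myosin Myo9a fell by 0.720 (FDR 2.7e-16). The Gad2-Cre table listed 8, 4 in each direction (of 880 listed genes 51.9% were lower). A cassette exon of Abi1, another WAVE complex subunit, rose there from 0.198 to 0.518 in the authors' deposited table (FDR 1.39e-10), and Myo9a fell by 0.829.

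Between the controls 7 of the 113 genes were listed, 4 higher and 3 lower in Gad2-Cre (of 552 listed genes 37.5% were lower). An exon of Phactr1, which codes for an actin-binding protein, was at 0.333 in Emx1-Cre and at 0.0149 in Gad2-Cre controls in the authors' deposited table (FDR 4.7e-05). The Purkinje table listed 4, 1 higher and 3 lower in group 2 (of 254 listed genes 26.8% were lower). They included a splice site of the talin gene Tln2, which links integrins to actin, at 0.613 in group 1 and 0.297 in group 2, and an exon of the WAVE complex gene Cyfip2 at 0.174 and 0.317, in the authors' deposited table. Both cortical cKO tables listed 4 of the genes, Myo9a, Abi1, Spire1 and Raph1, the last 2 named after their values had been seen. The filament nucleator gene Spire1 fell from 0.256 to 0.00581 in Emx1-Cre and from 0.3 to 0.0445 in Gad2-Cre neurons in the authors' deposited tables. Raph1, which codes for the Ena/VASP partner lamellipodin, rose from 0.442 to 0.686 and from 0.463 to 0.714 in the authors' deposited tables.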

How the data were processed

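Splicing events come from Quantas (build mm10, per the labels). The submitters' processing notes also name kallisto and edgeR without their role; aligner and versions are not given in the sources used here. Columns are, per the file headers, the authors' inclusion level per group (a fraction), the difference (group 1 minus group 2, another number from -1 to 1, shown here as group 2 minus group 1), p-value, FDR and coverage (a signal whose definition is not given). Levels pool 3 samples, so nothing could be tested across samples and depth is unknown. The table names in the labels put control before cKO and Emx1-Cre before Gad2-Cre; control levels were equal within 1e-08 at all 307 and 323 events that the control table shares with the cKO tables. Positions came from deposited interval lists, counted from 1.

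Rows were selected by symbol, matched by event name and isoform pair, and annotated with GENCODE M21 (YCAY in exons only, in place of the intended intron windows). They were compared between classes as described, with Python 3.11.15, pandas 2.3.3, numpy 2.4.6 and scipy 1.17.1. This comparison was also run on data simulated with the same normal spread, which cannot test whether the authors' p-values hold that spread. All events of the 6 genes are counted. Named were the largest event of each type per gene and table, events in 2 or more tables and, of the 113 genes, the largest event in each direction and table, of which 1 is not reported here. Members, lists and tests were chosen with earlier results of these data known. Not used here were 12 samples in 4 groups. Alternatives were stricter differences, FDR or coverage, 1 event per gene and other spreads.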

Additional observations from a re-analysis of the deposited data

Results flagged for a closer look

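For 3 overlapping Tpm3 events, all readings of the first exon of its alternative pair, the change in cKO differed between Gad2-Cre and Emx1-Cre neurons in a test of the difference itself across the 823 events listed in both tables. The change in Gad2-Cre minus that in Emx1-Cre was -0.290 for the 76 nt exon as a cassette, -0.254 for its 124 nt form as a cassette and -0.203 for that form as a mutually exclusive exon. Coverage of these events was 22 to 38. The spread behind the test is derived from the authors' p-values, which need not measure it, and not from samples.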

How the results depend on the processing

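With a spread taken from a t distribution with 4 degrees of freedom, all 14 events of the 6 genes differed between the classes, as did 623 of all 823. This is because the authors' very small p-values then give very small spreads. With a minimum coverage of 50 in each class 0 of 7 did (69 of 573 over all genes), fewer events being left, and 1 of the 7 had an unadjusted p under 0.05. With adjustment over cassettes and tandem cassettes alone 2 of 9 did (86 of 503 over all genes). With 1 event per gene the share lower in Gad2-Cre cKO was 75.0% (3 of 4 genes) in place of 33.3%, and with a minimum difference of 0.2 the share higher in Emx1-Cre controls was 0% (0 of 2 events) in place of 50%. The Purkinje table kept 2 of its 4 Tpm3 events with that minimum and 2 with a coverage of at least 50. Under the other settings, an FDR of at most 0.01 among them, the share lower in cKO ran from 42.9% to 60.0% in Emx1-Cre (50% as reported) and from 25.0% to 45.5% in Gad2-Cre neurons, the share higher in Emx1-Cre controls ran from 42.9% to 66.7%, and the shared events left had the same direction in both classes. YCAY counts with other intron windows were not run, as no genome sequence was used here, and leaving out single samples was not possible with pooled levels. No paired analysis was possible because the tables hold 1 pooled level per group and carry no replicate numbers. Counting precision cannot be given, since the definition of coverage is not known.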

Other observations

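Other genes had exons with levels close to those of the tropomyosin and Evl exons in the 4 cortical groups. Likeness was measured by the largest gap between 2 events over the 4 pooled group levels, for the cassette event of each gene with the largest mean change, against 312 cassette events of other genes listed in both cortical cKO tables. Nearest to the Tpm1 exon were exons of Smad4 (largest gap 0.0587), Robo2 (0.0978) and Aff4 (0.103). Nearest to the 72 nt form of the second Tpm3 exon were exons of Zeb1 (0.0984), Agrn (0.126) and Kif2a (0.149). Nearest to the 101 nt Evl region were exons of Pdzd4 (0.0814), Wdr7 (0.137) and, at another exon, Agrn (0.167). Enah, Ablim1 and Cttn had no cassette event in both tables (0 events for each).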
